A study of Arabidopsis thaliana with 12 samples.

Results

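The PIF and shade response factors are 9 transcription factor genes of Arabidopsis thaliana, PIF1, PIF3, PIF4, PIF5, PIF7, HFR1, PIL1, ATHB2 and HY5, picked by name and locus with earlier results of these data known. They are 9 of the 29420 loci in the deposited count table, and all 9 were among the 22076 genes that passed the filter on low counts. RNA came from whole seedlings of 4 genotypes with 3 libraries each: wild type (WT), the single mutants ref6-1 and brm-1, and the double mutant brm-1 ref6-1, which carries both alleles. The labels name no other treatment. All were 14 days old and had grown on half-strength MS medium at 22 °C with 16 h of light and 8 h of dark a day. BRM is the ATPase of a SWI/SNF chromatin remodeller, and REF6 is a histone demethylase that removes a mark placed by Polycomb proteins, so the comparisons ask how transcripts depend on each and on both. The labels name the alleles and do not describe them further, and they also speak of pooling RNA of biological replicates, so p-values may measure only a technical spread between libraries.

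PIF proteins are basic helix-loop-helix factors that bind the active form of phytochrome. Red light sends them to degradation, while darkness and the far-red light under a plant canopy let them accumulate and drive elongation. HFR1 belongs to the same protein family and forms dimers with PIFs that cannot bind DNA, which restrains the shade response. PIL1 and the homeodomain leucine-zipper gene ATHB2 are classic early transcripts of shade. HY5, a bZIP factor, acts on the light side, promoting pigment formation and greening. The time of day at harvest is not given in the labels, and several of these genes, PIF4 and PIF5 above all, are known to cycle over the day.

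Library totals ran from 10119148 to 11860892 counts. BRM was counted 3282, 2998 and 3067 times in the 3 WT libraries, 43, 50 and 74 times in brm-1 and 60, 35 and 438 times in the double mutant, whose replicate 3 thus stood apart. REF6 was counted 1116, 993 and 908 times in WT and 874, 892 and 888 times in ref6-1, a log2 difference of -0.15 ± 0.05 that did not pass (edgeR adjusted p = 0.06), so its transcript does not check that label. Of the tissue markers, 8 green shoot genes summed to 899 to 955 CPM (counts scaled to library size) in WT and 12 root genes to 528 to 589.6 CPM. In such bulk samples fewer cells of a type and less RNA per cell cannot be told apart.

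PIFs and HY5 both recognise the G-box, CACGTG, which reads the same on both strands. Within 2000 bases upstream of the annotated start, 4 of the 9 genes held it (PIF5, PIF7, HFR1 and PIL1), against 24% of 26706 promoters of this length. The 7 sites are shown because they are the sequence that members of this family could share, with the G-box in capitals and the distance upstream of the start in the name. They are read 5′ to 3′ along the gene from the RefSeq TAIR10.1 genome, and none lies inside another annotated gene.
PIF5, 165 bases upstream (3:21830985-21831014, minus strand): ttaactagtcaaCACGTGaaataaatgcga
PIF7, 1263 bases upstream (5:24642011-24642040, minus strand): ataagatctttcCACGTGtcattatgacga
HFR1, 1419 bases upstream (1:469282-469311, minus strand): tcacgagggcatCACGTGaacacgcctttt
HFR1, 1000 bases upstream (1:468863-468892, minus strand): gagcccacaaccCACGTGggattttggata
PIL1, 1222 bases upstream (2:19299063-19299092, minus strand): tcacgcggcattCACGTGaagtgcacgtga
PIL1, 1211 bases upstream (2:19299052-19299081, minus strand): tcacgtgaagtgCACGTGaacttggccaaa
PIL1, 1093 bases upstream (2:19298934-19298963, minus strand): gttctttccgctCACGTGggccttttgtgc
PIL1 thus held 3 copies, of which the first and second windows overlap, and HFR1 held 2. Within 300 bases of the start, PIF5 was the 1 member with a G-box, against 7.18% of 26709 promoters.

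Other motifs were searched on both strands of the same windows. The PIF-binding E-box CACATG lay within 2000 bases of 5 members (PIF3, PIF4, PIF7, HFR1 and HY5) against 61.1% of promoters, and HY5 alone held it within 300 bases (13.1%). The HD-Zip site CAATNATTG, the kind of sequence that ATHB2 binds, was found within 2000 bases of PIF7 and of ATHB2 itself (6.37% of promoters). The words CTCTGTTT, CTCTGTTC, CTCTGCTT and CTCTGCTC, known as REF6 target sequences, were found as a set within 2000 bases of PIF1, PIF7 and PIL1 (39.6%) and in 0 of 9 within 300 bases (6.79%). These matches describe letters only and do not show that a factor binds there.

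To compare levels between genes, CPM was divided by the annotated exon length in kilobases. On this per-length scale PIF5 led in WT at 34.5, ahead of HY5 at 31.7, PIF3 at 29.7 and PIF4 at 29.1. Neighbours among these leaders overlapped between libraries. ATHB2 (21.7), PIF1 (20.5) and PIF7 (20.1) followed and overlapped with their neighbours among themselves, then HFR1 at 12.1 and PIL1 at 1.49, each apart from the gene above it. In brm-1, PIF7 stood at 31.8 on this scale, rank 4 of the 9, where it had rank 7 in WT. Its brm-1 libraries overlapped those of PIF3 above it and HY5 below it. PIL1 was last in all 4 genotypes, on 22 to 37 counts per library in WT, which makes it the least precisely measured member.

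**Figure D1:**
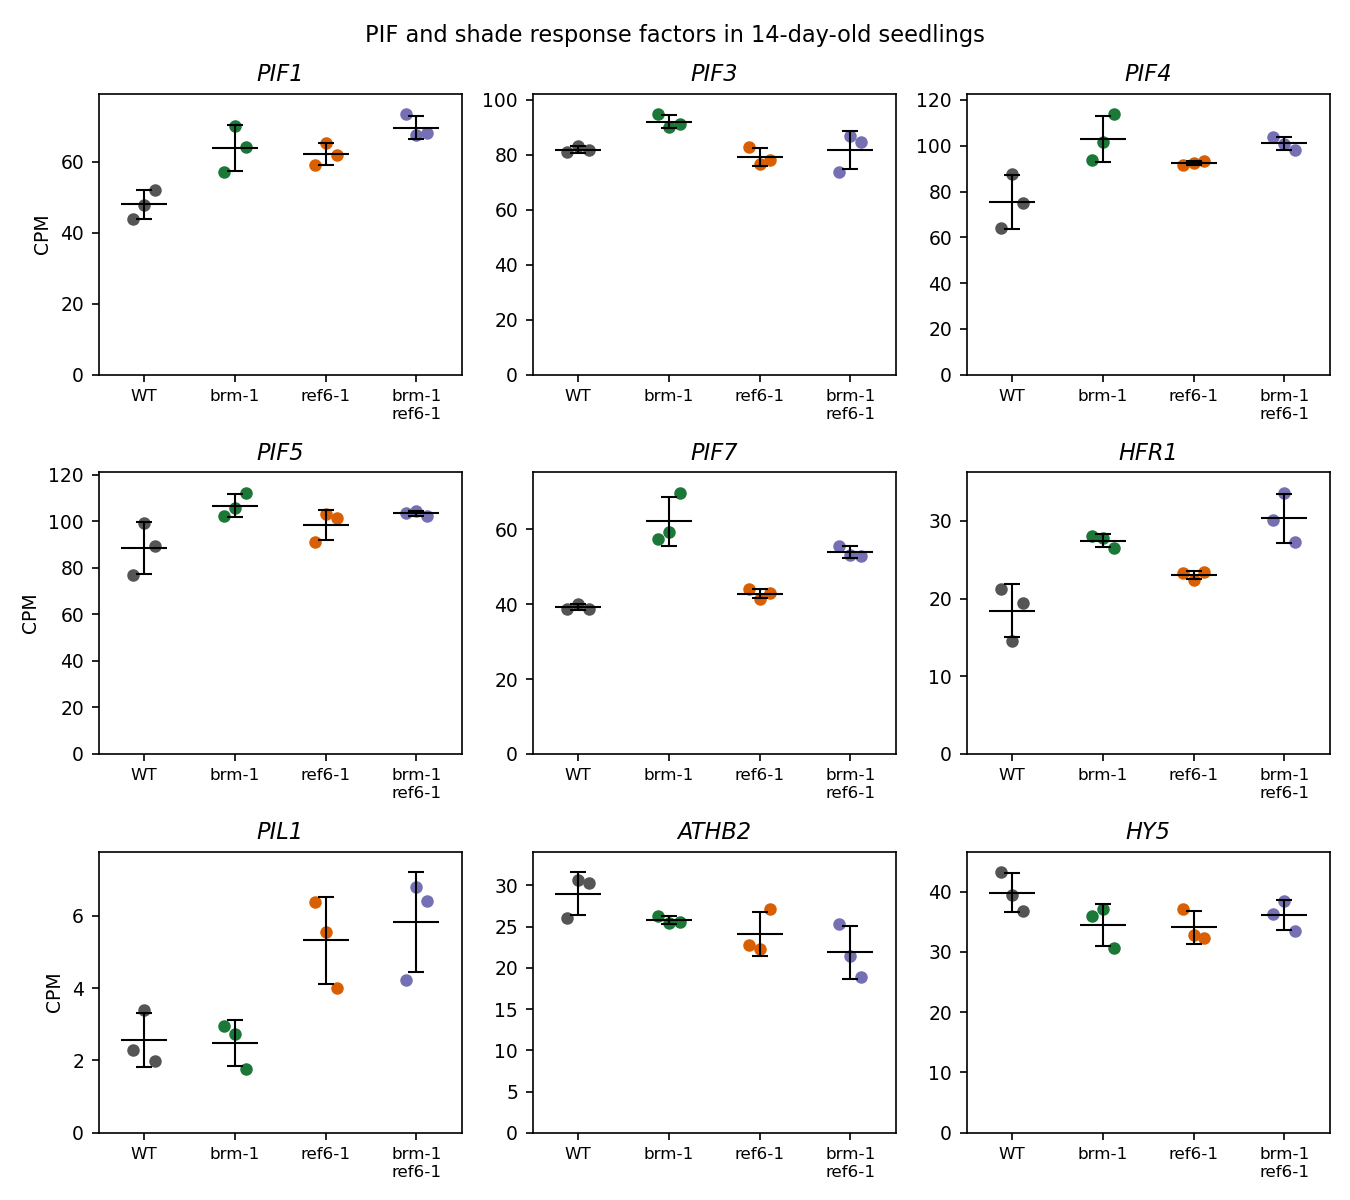
Level of each of the 9 factors in CPM (vertical axis, linear from 0) in the 3 libraries of each genotype (points), with the mean and SD (bars). PIF7 is at 57.4 to 69.7 CPM in brm-1 and 38.7 to 40.1 CPM in WT, and PIL1 is higher in both genotypes that carry ref6-1.

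In brm-1, 6 of the 9 factors rose (edgeR adjusted p under 0.05), against 8.88% of all tested genes higher, 10.1% lower and 19% in either direction. The 6 were PIF1, PIF3, PIF4, PIF5, PIF7 and HFR1, and PIL1, ATHB2 and HY5 did not pass. In ref6-1, 2 of the 9 rose, PIF1 and PIL1, against 2.33% higher, 5.63% lower and 7.95% in either direction. In the double mutant 6 rose, PIF1, PIF4, PIF5, PIF7, HFR1 and PIL1, and ATHB2 fell, against 14% higher, 17.3% lower and 31.2% in either direction. The median log2 change of the 9 was 0.27 in brm-1, 0.16 in ref6-1 and 0.42 in double-mutant seedlings, beside -0.00285, 0.00382 and 0.00035 over all tested genes. These comparisons share the 3 WT libraries. With 1 library left out at a time, the count was 4 to 5 in brm-1, 0 to 3 in ref6-1 and 5 to 7 in double-mutant seedlings, where it was 5 without replicate 3, the library with more BRM counts. In ref6-1 it was 0 without WT replicate 1 or ref6-1 replicate 2, and 1 without WT replicate 3 or ref6-1 replicate 1.

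**Figure D2:**
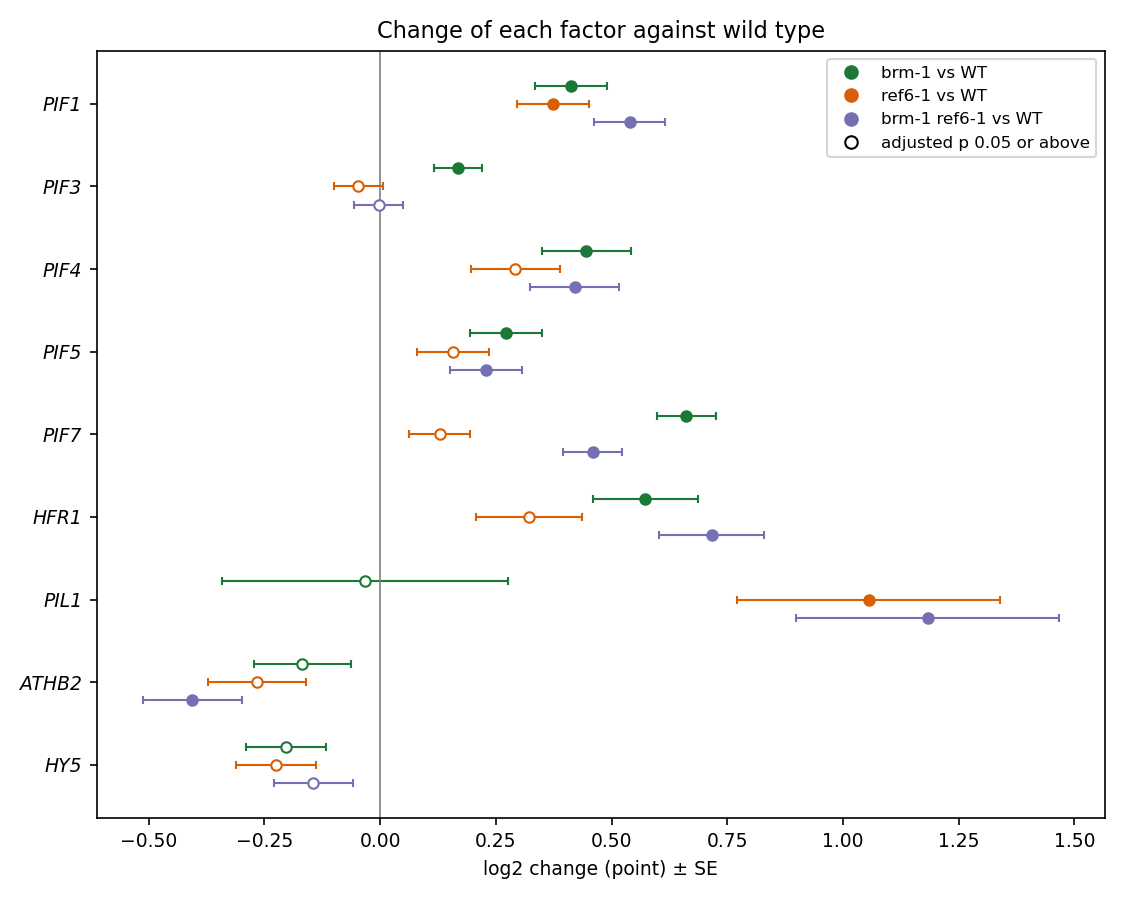
Log2 change of each factor against WT (horizontal axis, point with SE) in brm-1, ref6-1 and the double mutant. Filled points passed at an adjusted p under 0.05 and open points did not. PIF7 is the furthest right of the PIF genes in brm-1 at 0.66, and PIL1 is near 0 in brm-1 but above 1 with ref6-1.

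PIF7 (AT5G61270, chromosome 5, 24638491 to 24640765 in the TAIR10.1 annotation), the PIF that acts earliest when shade begins and whose protein is stable in light, had the largest rise in brm-1 of the 9. It was at 38.9, 40.1 and 38.7 CPM in the WT libraries, 57.4, 59.4 and 69.7 in brm-1, 44.1, 41.5 and 43 in ref6-1 and 55.7, 53.3 and 52.8 in double-mutant seedlings. All brm-1 and double-mutant libraries lay above all WT and ref6-1 libraries, and ref6-1 lay just above WT without overlap. The rise was 0.66 ± 0.06 (log2 scale, SE over 3 libraries a genotype) in brm-1 (edgeR adjusted p = 3.75e-05), which is 1.58-fold. In the double mutant it was 0.46 ± 0.06 (0.000271 by the same test), and in ref6-1 the difference of 0.13 ± 0.07 did not pass (edgeR adjusted p = 0.264, 95% interval -0.01 to 0.27). The 3′ end of PIF7 overlaps AT5G61260 on the other strand, and the counting is not stated to use strand, so reads of the pair may be shared. AT5G61260 lay at 6.25 to 9.31 CPM in brm-1 and 8.9 to 12.3 CPM in WT, the opposite direction (-0.44 ± 0.17, edgeR adjusted p = 0.0952). It did pass against WT in the double mutant.

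The promoter of PIF7 is shown because this gene moved most in brm-1. The 300 bases before its start (5:24640766-24641065, minus strand) hold none of the 4 motifs searched.
PIF7 promoter: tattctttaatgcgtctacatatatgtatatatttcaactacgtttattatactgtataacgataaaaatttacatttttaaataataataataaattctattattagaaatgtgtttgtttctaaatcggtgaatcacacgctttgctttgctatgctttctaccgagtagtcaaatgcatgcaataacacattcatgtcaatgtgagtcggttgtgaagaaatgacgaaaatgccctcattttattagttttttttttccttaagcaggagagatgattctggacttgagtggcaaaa

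PIF4 (AT2G43010, chromosome 2, 17886101 to 17889087) and PIF5 (AT3G59060, chromosome 3, 21827905 to 21830837), close relatives that promote elongation in warmth and shade, both rose in brm-1 and in the double mutant. PIF4 was at 64.3, 87.8 and 74.9 CPM in WT, 93.6, 102 and 114 in brm-1, 91.6, 92.6 and 93.3 in ref6-1 and 104, 101 and 98.2 in double-mutant seedlings. PIF5 was at 76.8, 99.1 and 89.3 CPM in WT, 102, 106 and 112 in brm-1, 90.9, 103 and 101 in ref6-1 and 104, 104 and 102 in double-mutant seedlings. For both genes WT replicate 1 was the lowest library of all 12 and WT replicate 2 the highest of the WT group. For both, every brm-1 and double-mutant library exceeded every WT library, while ref6-1 libraries lay above all WT libraries for PIF4 and overlapped them for PIF5. PIF4 rose by 0.45 ± 0.10 in brm-1 (edgeR adjusted p = 0.00785) and by 0.42 ± 0.10 in the double mutant (0.00729). In ref6-1 its difference of 0.29 ± 0.10 did not pass (edgeR adjusted p = 0.0915, 0.0127 to 0.234 across the alternatives), but did with DESeq2 (adjusted p = 0.0448) and without WT replicate 2 (0.0127).

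PIF5 rose by 0.27 ± 0.08 in brm-1 (edgeR adjusted p = 0.0297) and by 0.23 ± 0.08 in the double mutant (0.043). Neither call held under every alternative. In brm-1 the call ended without WT replicate 1 (log2 0.18, edgeR adjusted p = 0.0719), WT replicate 3 (0.068), and without replicate 2 (0.0763) or 3 (0.108) of brm-1, or when just those genotypes were fitted (0.067), spanning 0.00421 to 0.108. In the double mutant it held without WT replicate 2 and ended without WT replicate 1 (log2 0.13, edgeR adjusted p = 0.128), without WT replicate 3 (0.0802), without replicate 1 (0.121), 2 (0.0966) or 3 (0.0766) of the mutant, and when just those genotypes were fitted (0.0706), spanning 0.00595 to 0.128. In ref6-1, PIF5 differed by 0.16 ± 0.08 and did not pass (edgeR adjusted p = 0.249).

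The promoters of this pair are printed because their transcripts were the most alike of the 9 over the libraries (Pearson r = 0.94 of log2 CPM, 12 libraries of 4 genotypes, a description). The 300 bases of PIF4 (2:17885801-17886100, plus strand) hold none of the 4 motifs, and those of PIF5 (3:21830838-21831137, minus strand) hold the G-box in capitals.
PIF4 promoter: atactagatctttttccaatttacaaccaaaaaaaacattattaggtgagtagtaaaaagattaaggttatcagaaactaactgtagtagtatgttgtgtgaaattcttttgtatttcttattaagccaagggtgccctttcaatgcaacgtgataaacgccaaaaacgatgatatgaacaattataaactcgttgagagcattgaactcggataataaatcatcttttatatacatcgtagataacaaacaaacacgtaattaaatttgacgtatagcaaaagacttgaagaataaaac
PIF5 promoter: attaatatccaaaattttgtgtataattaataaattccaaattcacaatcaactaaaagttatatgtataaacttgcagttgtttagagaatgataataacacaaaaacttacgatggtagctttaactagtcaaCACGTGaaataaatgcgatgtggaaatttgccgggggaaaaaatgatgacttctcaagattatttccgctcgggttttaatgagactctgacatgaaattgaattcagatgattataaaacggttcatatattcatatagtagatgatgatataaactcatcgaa

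PIF1 (AT2G20180, chromosome 2, 8704024 to 8707009), which represses seed germination and chlorophyll formation in the dark, was the 1 factor that rose in all 3 mutants. It was at 44, 47.8 and 52.2 CPM in WT, 57.1, 70.2 and 64.3 in brm-1, 59.1, 65.3 and 61.9 in ref6-1 and 73.4, 67.6 and 68 in double-mutant seedlings. Every mutant library lay above every WT library, while the single mutants overlapped each other. The log2 rise was 0.41 ± 0.08 in brm-1 (edgeR adjusted p = 0.00311), 0.37 ± 0.08 in ref6-1 (0.0128) and 0.54 ± 0.08 in double-mutant seedlings (0.000353). In ref6-1 the call ended without WT replicate 1 (edgeR adjusted p = 0.0538) and without ref6-1 replicate 2 (0.0545), with 0.00215 to 0.0545 across the alternatives. The 3′ end of PIF1 overlaps AT2G20170 on the other strand. That gene moved the same way in brm-1, from 4.01 to 4.88 CPM in WT to 5.33 to 7.13 CPM (0.52 ± 0.16, edgeR adjusted p = 0.0443). In the double mutant AT2G20170 and the PIF7 neighbour AT5G61260 were both called against WT, 1 higher and 1 lower. The counting is not stated to use strand, and sharing of reads between the pair was not tested.

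PIF3 (AT1G09530, chromosome 1, 3075768 to 3079654), the first PIF found and a repressor of greening in the dark, was 81, 83.3 and 81.6 CPM in WT, 94.7, 90.3 and 91.1 in brm-1, 82.9, 76.8 and 78 in ref6-1 and 73.7, 86.8 and 84.8 in double-mutant seedlings. The brm-1 libraries lay above all others, and the remaining genotypes overlapped. Its rise in brm-1 was small, 0.17 ± 0.05 (edgeR adjusted p = 0.0393), and was not called without any 1 of the 6 libraries compared (0.113, 0.0652 and 0.093 without WT replicates 1, 2 and 3, and 0.115, 0.0668 and 0.0788 without those of brm-1) or with DESeq2 (adjusted p = 0.0831), spanning 0.00986 to 0.115. In the double mutant PIF3 differed from WT by -0.0032 ± 0.05 (edgeR adjusted p = 0.971, 95% interval -0.12 to 0.11).

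HFR1 (AT1G02340, chromosome 1, 465616 to 467880), the inhibitor that dimerises with PIFs, rose together with them in brm-1 and in the double mutant. It was at 21.2, 14.6 and 19.4 CPM in WT, 28, 27.8 and 26.5 in brm-1, 23.3, 22.4 and 23.5 in ref6-1 and 30.2, 33.6 and 27.3 in double-mutant seedlings. Every mutant library exceeded every WT library, with ref6-1 between WT and the genotypes that carry brm-1. The log2 rise was 0.57 ± 0.11 in brm-1 (edgeR adjusted p = 0.00386) and 0.72 ± 0.11, or 1.64-fold, in the double mutant (0.000591). The difference of 0.32 ± 0.12 in ref6-1 did not pass (edgeR adjusted p = 0.11).

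PIL1 (AT2G46970, chromosome 2, 19295431 to 19297858), a PIF-like factor that shade switches on within minutes to hours, was higher in both genotypes that carry ref6-1. It was at 2.3, 3.4 and 1.99 CPM in WT, 2.96, 2.73 and 1.76 in brm-1, 6.39, 5.56 and 4.02 in ref6-1 and 4.24, 6.81 and 6.41 in double-mutant seedlings. The ref6-1 and double-mutant libraries all lay above the WT and brm-1 libraries, which overlapped each other. PIL1 rose by 1.06 ± 0.28 in ref6-1 (edgeR adjusted p = 0.0407), 2.08-fold, and by 1.18 ± 0.28 in the double mutant (0.0075). In brm-1 the difference was -0.03 ± 0.31 (edgeR adjusted p = 0.965), with a 95% interval of -0.70 to 0.64 that does not exclude a change in either direction. The ref6-1 call ended without WT replicate 1 (edgeR adjusted p = 0.132), WT replicate 3 (0.121), ref6-1 replicate 1 (0.132) and without ref6-1 replicate 2 (0.111), or when just those genotypes were fitted (0.0662), spanning 0.0271 to 0.132. Its call in the double mutant held under every alternative run.

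ATHB2 (AT4G16780, chromosome 4, 9449114 to 9450905), the other shade-induced transcript, fell in the double mutant, where PIL1 rose. It was at 26, 30.7 and 30.3 CPM in WT, 26.3, 25.5 and 25.5 in brm-1, 22.8, 22.3 and 27.1 in ref6-1 and 25.3, 21.4 and 18.9 in double-mutant seedlings. The double-mutant libraries lay below every WT library, while both single mutants overlapped WT. It fell by 0.41 ± 0.11 on the log2 scale in the double mutant (edgeR adjusted p = 0.0129), but was no longer called without replicate 3 of that mutant (0.051, 0.00431 to 0.051 across the alternatives). The differences of -0.17 ± 0.11 in brm-1 and -0.27 ± 0.11 in ref6-1 did not pass (edgeR adjusted p = 0.311 and 0.149).

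HY5 (AT5G11260, chromosome 5, 3593335 to 3595073), the factor that works against PIFs at shared promoters, was not called in any of the 7 comparisons by the edgeR fit with 1 mean per genotype. It was at 43.2, 39.5 and 36.7 CPM in WT, 35.9, 37.1 and 30.6 in brm-1, 37.1, 32.8 and 32.2 in ref6-1 and 36.3, 38.4 and 33.5 in double-mutant seedlings. All 3 mutants overlapped WT. The log2 differences from WT were -0.20 ± 0.09 in brm-1, -0.22 ± 0.09 in ref6-1 and -0.14 ± 0.09 in double-mutant seedlings (edgeR adjusted p = 0.121, 0.13 and 0.226). The 95% interval in the double mutant was -0.33 to 0.04.

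The single mutants were also compared directly, and 3 of the 9 factors differed, 2 higher and 1 lower in brm-1 than in ref6-1, against 8.61% of all genes higher, 7.47% lower and 16.1% in either direction. PIF7 was higher in brm-1 by 0.53 ± 0.06 (edgeR adjusted p = 0.000135) and PIF3 by 0.22 ± 0.05 (0.014), while PIL1 was lower, at -1.09 ± 0.29 (0.0209). The PIF7 call held under every alternative. That of PIF3 ended without brm-1 replicate 1 (edgeR adjusted p = 0.055) and without ref6-1 replicate 2 (0.0639, 0.0105 to 0.0639 across the alternatives). That of PIL1 ended without brm-1 replicate 3 (edgeR adjusted p = 0.0801), ref6-1 replicate 1 (0.0777) and without ref6-1 replicate 2 (0.0619, 0.0132 to 0.0801 across the alternatives). Without ref6-1 replicate 2 the count was therefore 1.

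Each mutation could also be read in the presence of the other. Adding brm-1 to ref6-1 raised 2 of the 9, against 5.39% higher and 6.56% lower (11.9% in either direction) over all genes. PIF7 rose by 0.33 ± 0.06 (edgeR adjusted p = 0.00504) and HFR1 by 0.40 ± 0.11 (0.036). PIF7 held under every alternative. HFR1 was not called without ref6-1 replicate 1 (edgeR adjusted p = 0.0674), 2 (0.108) or 3 (0.0788), nor without double-mutant replicate 1 (0.0819) or 2 (0.143), spanning 0.0225 to 0.143, which leaves a count of 1. Adding ref6-1 to brm-1 raised PIL1 alone, 1 of the 9, by 1.22 ± 0.29 (0.0321 by the same test), against 1.12% higher and 3.27% lower (4.38% in either direction). That call ended without brm-1 replicate 1 (edgeR adjusted p = 0.0647), 2 (0.0624) or 3 (0.116), or without double-mutant replicate 2 (0.118) or 3 (0.0763), spanning 0.01 to 0.118, and the count was then 0.

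**Figure D3:**
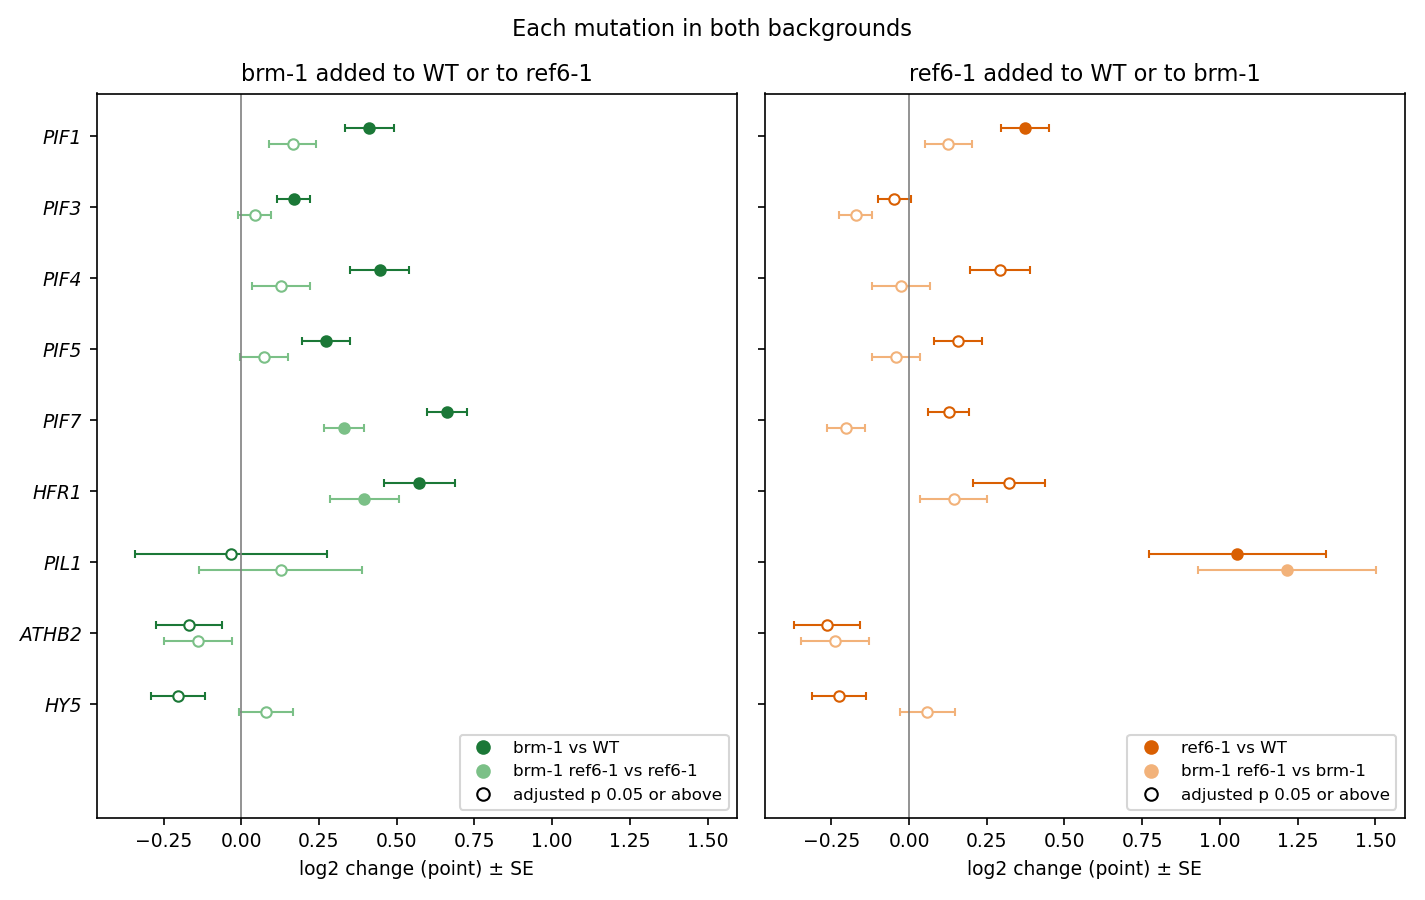
Log2 change with SE (horizontal axis) of each factor when brm-1 is added to WT or to ref6-1 (left) and when ref6-1 is added to WT or to brm-1 (right). Filled points passed at an adjusted p under 0.05. PIF7 is at 0.66 and 0.33 on the left, and PIL1 at 1.06 and 1.22 on the right.

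Whether the mutations act independently on the log2 scale was tested as the interaction, the change from brm-1 to the double mutant minus the change from WT to ref6-1. With edgeR 0 of the 9 factors passed, against 0.186% of genes higher, 0.0589% lower and 0.245% in either direction. DESeq2 and limma-voom also called 0, and with edgeR 4 factors had an unadjusted p under 0.05, as did 10.2% of all tested genes. These were PIF7 (-0.33 ± 0.09, edgeR adjusted p = 0.206), PIF4 (-0.32 ± 0.13, 0.451), PIF1 (-0.25 ± 0.11, 0.472) and HY5 (0.28 ± 0.12, 0.453). For PIF1, PIF4 and PIF7 the negative sign means that the double mutant lay below the sum of the log2 changes in the single mutants, without passing the test. A difference between backgrounds was thus not shown for any factor.

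Genes that act with these factors were read from lists of known roles. Of 17 shade and PIF target genes, 9 rose in brm-1, 3 rose and 1 fell in ref6-1, and 8 rose and 2 fell in the double mutant. Their median log2 changes were 0.35, 0.12 and 0.38. Against WT, 19% of all tested genes were called for brm-1, 7.95% for ref6-1 and 31.2% for double-mutant seedlings, which is the background for this and the other lists. YUC5, an enzyme of auxin synthesis, was at 4.6, 4.31 and 3.8 CPM in WT and 17.8, 18.4 and 16.4 in brm-1, a rise of 2.04 ± 0.14 (edgeR adjusted p = 4.34e-06). TAA1, which makes the precursor that YUC enzymes use and is needed for shade elongation, rose by 0.60 ± 0.07 in brm-1 (7.82e-05 by the same test) and by 0.73 ± 0.07 in the double mutant. HAT1, a relative of ATHB2, rose by 0.41 ± 0.08 and the auxin response gene IAA19 by 0.75 ± 0.16 in brm-1. The 3 that rose in ref6-1 were IAA19 (0.75, edgeR adjusted p = 0.0154), HAT1 (0.29, 0.0391) and TAA1 (0.25, 0.0457). Those ref6-1 calls ended under 2, 5 and 8 of 13 alternatives. BBX28, of the same list, fell by 0.33 ± 0.06 in the double mutant. It was also the 1 that fell in ref6-1 (-0.28, edgeR adjusted p = 0.018), a call that ended under 4 of 13 alternatives.

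On the light side, of 10 targets that HY5 activates or PIFs repress, 1 rose and 5 fell in brm-1, 2 fell in ref6-1 and 5 fell in the double mutant (medians -0.19, -0.12 and -0.18). The flavonoid enzyme genes FLS1, F3H and CHS changed by -0.62 ± 0.05, -0.42 ± 0.06 and -0.21 ± 0.03 in brm-1, and ELIP1, a light-stress protein of chloroplasts, by -0.91 ± 0.13. HYH, a close relative of HY5, fell by 0.50 ± 0.10 (edgeR adjusted p = 0.00352). HYH stood in a list of 21 photoreceptors and light signalling genes, of which 3 rose and 5 fell in brm-1, 1 and 4 in ref6-1, and 5 and 7 in the double mutant (medians 0.02, -0.02 and 0.02).

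SPA proteins work with the ubiquitin ligase COP1, which degrades HY5 and HFR1 in the dark. SPA3 was at 127, 119 and 113 CPM in WT, 75.8, 82 and 68.8 in brm-1, 79.4, 77.6 and 76.9 in ref6-1 and 78.7, 73.8 and 69.2 in double-mutant seedlings, below WT in every mutant library. It fell by 0.66 ± 0.06 in brm-1, 0.62 ± 0.06 in ref6-1 and 0.69 ± 0.06 in double-mutant seedlings (edgeR adjusted p = 3.59e-05, 0.000101 and 1.5e-05). SPA1 fell by 0.23 ± 0.03, 0.28 ± 0.03 and 0.28 ± 0.03 in the same order, and COP1 by 0.17 ± 0.03 in the double mutant.

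**Figure D4:**
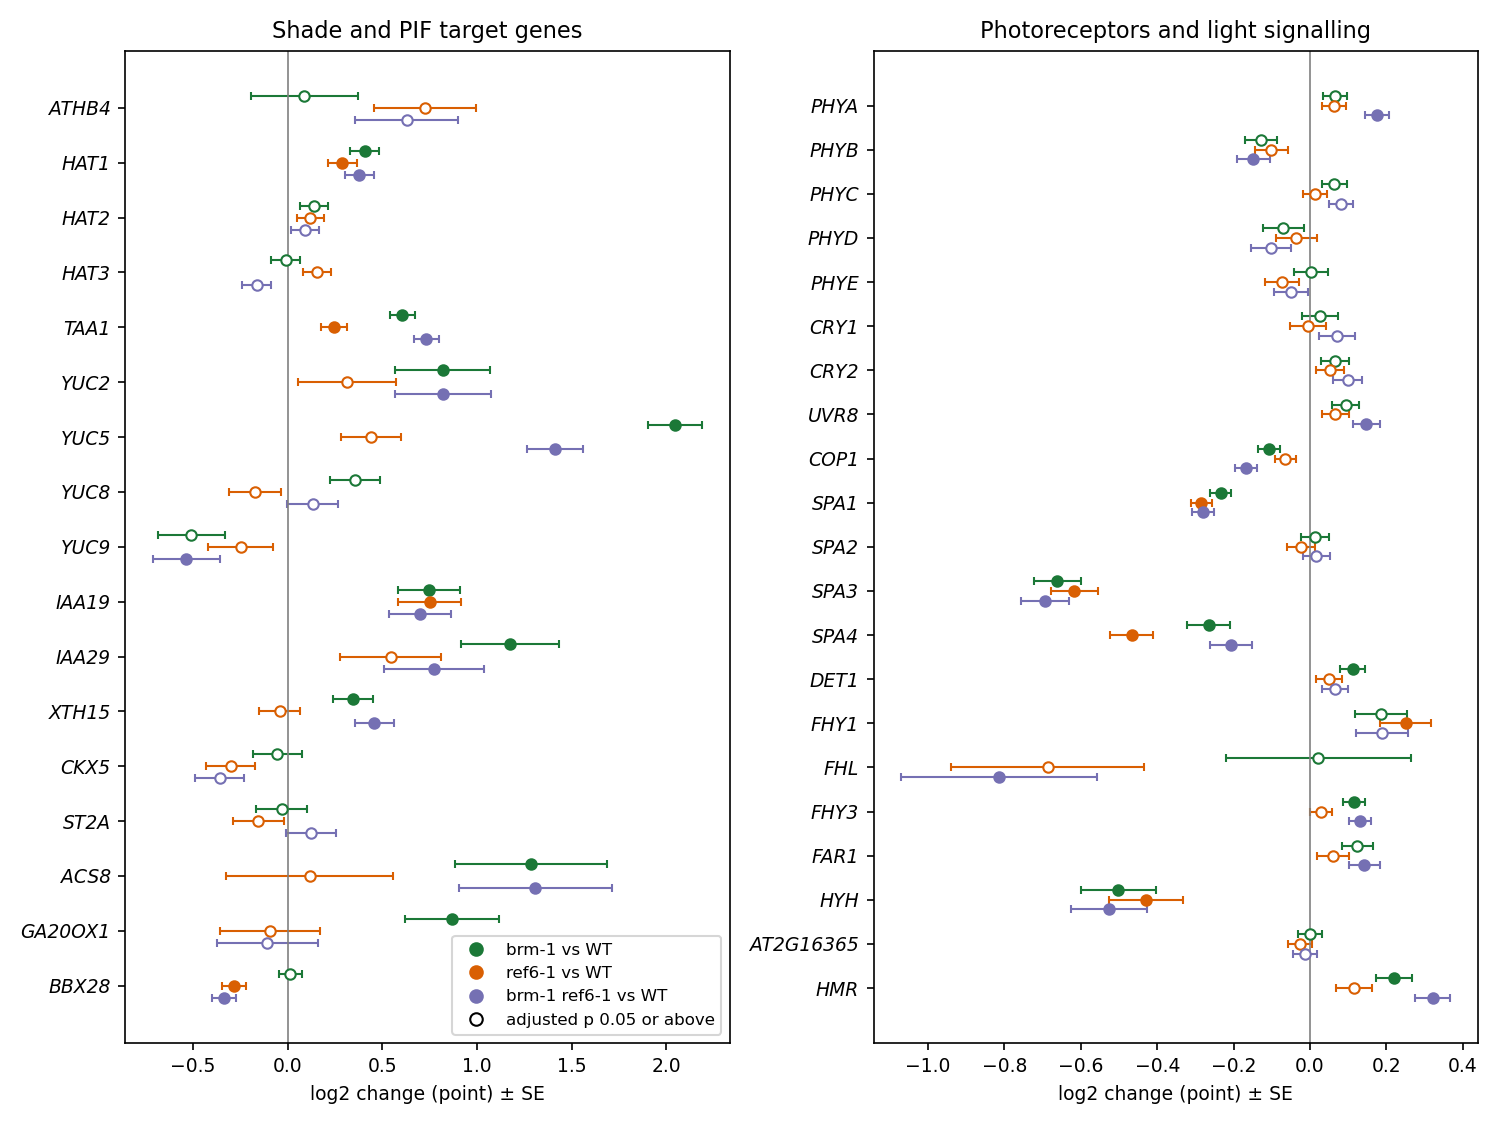
Log2 change against WT with SE (horizontal axis) of 17 shade and PIF target genes (left) and 21 photoreceptors and light signalling genes (right) in brm-1, ref6-1 and the double mutant. Filled points passed at an adjusted p under 0.05. YUC5 lies furthest right at 2.04 in brm-1, and SPA3 lies between -0.69 and -0.62 in the 3 mutants.

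Of 10 genes of the evening complex and clock, which sets the daily rhythm of PIF4 and PIF5, 3, 3 and 5 fell in brm-1, ref6-1 and the double mutant (medians -0.03, -0.01 and -0.03). The morning gene PRR9 fell by 0.80 ± 0.14, 1.29 ± 0.15 and 1.81 ± 0.15 in that order (edgeR adjusted p = 0.00176, 0.000224 and 9.57e-06). CCA1 and LHY, which also peak in the morning, fell by 0.94 ± 0.14 and 1.39 ± 0.22 in ref6-1. Both were also called lower in the double mutant, at -0.99 and -1.11. In brm-1 CCA1 was at -0.47, a call that ended under 6 of 13 alternatives, and LHY was not called. The part of harvest time or of clock phase in the PIF4 and PIF5 values was not tested. Of 10 other helix-loop-helix partners, 4 rose and 1 fell in brm-1, 3 and 1 in ref6-1, and 3 and 1 in the double mutant (medians 0.25, -0.02 and 0.02). PAR1, a small inhibitor of PIF4, rose by 0.67 ± 0.11 in ref6-1, 0.43 in brm-1 and 0.32 in the double mutant. Its calls in brm-1 and the double mutant ended under 4 and 10 of 13 alternatives. PRE5, at 15 to 30 counts per WT library, rose by 1.54 in brm-1 and 1.18 in the double mutant. Those calls ended under 2 and 4 of 13 alternatives. ALC rose by 0.39 and 0.49 in the same 2 genotypes, and the calls ended under 1 and 0 of 13. PIF8 fell by 0.59 ± 0.09 in ref6-1 and by 0.35 in the double mutant, where the call ended under 2 of 13 alternatives. Of 8 DELLA and brassinosteroid partners, 1 rose in brm-1, and 2 rose and 2 fell in the double mutant (medians 0.04, 0.03 and 0.04). Over all tested genes, 19% and 31.2% were called in either direction. In the double mutant the kinase gene BIN2 was at 0.20 ± 0.03, BES1 at 0.18 ± 0.04, RGL3 at -0.63 and GAI at -0.11. The RGL3 and GAI calls ended under 5 and 9 of 13 alternatives.

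Markers of cell types moved beside these changes. The 8 green shoot markers summed to 940.2 to 1044 CPM in brm-1, 925 to 953 in ref6-1 and 940.1 to 1015 in double-mutant seedlings, and 6 of them rose in brm-1 and 4 in the double mutant. Because no locus exceeded 6707 counts, sums and changes of abundant markers may be compressed. The 12 root markers, of which 1 rose and 2 fell in brm-1, summed to 481 to 516 CPM there, 488 to 526 in ref6-1 and 502 to 535 in double-mutant seedlings, below or overlapping WT. The 6 seed markers were at 0.362 to 1.01 CPM in WT and 1.07 to 2.13 in ref6-1, but at 5.28 to 45.3 in brm-1 and 45.2 to 108 in the double mutant. Summed over the 9 factors, CPM ran from 398 to 446 in WT, 498 to 535 in brm-1, 458 to 465 in ref6-1 and 492 to 513 in double-mutant seedlings. The part of tissue makeup in the results on the factors was not tested.

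The transcripts most like each factor over the 12 libraries were read as a description, since libraries share genotypes. For PIF4 they were LHCB2.2 (r = 0.98), AT2G42220 (0.97) and LHCA4 (0.96), with both named genes coding for light-harvesting proteins and LHCB2.2 having near-identical copies that can share reads. For PIF5 they were AT4G29310 (0.95), PIF4 (0.94) and AT5G19190 (0.94). For PIF7 the first was MAP1B, a methionine aminopeptidase gene (0.98), for PIF1 AT1G70100 (0.98), for HFR1 AT2G32970 (0.97) and for PIF3 AT1G80940 (0.93). HY5 was most like the kinase gene CIPK5 (0.96), PIL1 most like CIP111 (0.92) and NET1A (0.91), and ATHB2 most like AT5G44568 (0.91), SNC4 (0.89) and NAC103 (0.88). Among the factors themselves, PIF1 and PIF4 were at r = 0.84, PIF4 and PIF7 at 0.80, PIL1 and ATHB2 at -0.72, and PIF5 and HY5 at -0.70, while PIF1 and PIF3 were at -0.02.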

How the data were processed

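Counts of reads per locus were made by the authors from paired-end TruSeq libraries and deposited as 1 table with no normalization. The submitters' processing notes name TopHat2 and TAIR10. The sources used here give no aligner version, counting program or strand setting. Even numbers made up 56.4% of the values from 1 to 20, so some read pairs may be counted as 2 reads, and no locus exceeded 6707 counts, so the most abundant transcripts may be compressed. Intervals cover the spread in the fit only. All 12 libraries were fitted together with edgeR 4.0.16 (R 4.3.3), with 1 mean per genotype, TMM scaling and the filterByExpr filter. Two-sided p-values of its robust quasi-likelihood F test were adjusted after Benjamini-Hochberg over 22076 genes, and a call means an adjusted p under 0.05. An exact permutation of 3 libraries against 3 cannot go below p = 0.1 for a single gene. SEs come from the F statistic, intervals are 95%, and CPM uses TMM-scaled library sizes.

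The 9 members and the 9 other lists (102 genes) were chosen with earlier results of these data known. All 9 members are named. Up to 4 list genes with the smallest adjusted p in each comparison with WT, and up to 2 in other comparisons, could be named. The text gives a selection of these made after their values were seen, as was the choice of SPA1 in the interaction. SPA2 is named outside this rule, also after its values were seen. Likeness is Pearson's r of log2 CPM (prior count 2) among genes with a mean of at least 2 CPM. Alternatives were DESeq2 1.42.0, its size factors in edgeR, limma-voom (limma 3.58.1), no low-count filter, a minimum of 1 CPM in 6 libraries, the replicate number as a block, a fit of just the genotypes compared, and each library left out. For list genes they were added after seeing the data. Promoter windows of 300 and 2000 bases and exon lengths come from the RefSeq TAIR10.1 annotation, matched by locus for all 9 members.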

Additional observations from a re-analysis of the deposited data

Results flagged for a closer look

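In tests of the difference itself, the effect of ref6-1 depended on brm-1 for 3 SPA genes, partners of the COP1 ligase that degrades HY5 and HFR1. The interaction was 0.53 ± 0.08 for SPA4 (SE, n = 3 per group, edgeR adjusted p = 0.0228), 0.58 ± 0.09 for SPA3 (0.0234) and 0.24 ± 0.04 for SPA1 (0.032), in each case a double mutant (brm-1 ref6-1) less far below WT than the sum of the single mutants' log2 changes. SPA4 was at 67.1 to 70.5 CPM in WT, 52.9 to 59.5 in brm-1, 48.7 to 51.1 in ref6-1 and 55.3 to 64.2 in the double mutant. The SPA4 call ended without WT replicate 1 (edgeR adjusted p = 0.0743), ref6-1 replicate 2 (0.0609) or double-mutant replicate 2 (0.0573). That of SPA3 ended without WT replicate 1 (edgeR adjusted p = 0.064) or 2 (0.0563), brm-1 replicate 1 (0.054), ref6-1 replicate 2 (0.0796) or 3 (0.0548), or double-mutant replicate 2 (0.0839). That of SPA1 ended without any 1 library except WT replicate 3 and double-mutant replicate 3 (edgeR adjusted p from 0.0188 to 0.112 across the alternatives).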

How the results depend on the processing

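Of 864 comparisons of the 9 factors with an alternative, 792 kept their direction and side of the threshold, 42 lost and 6 gained a call, and 24 changed sign, all of them uncalled values. With 1 library left out, the number of factors called ran from 0 to 3 in ref6-1 (main value 2), 0 to 1 for brm-1 ref6-1 against brm-1 (1), 1 to 2 against ref6-1 (2) and 1 to 3 for brm-1 against ref6-1 (3). In ref6-1 it was 1 when just WT and ref6-1 were fitted. PIF3 in brm-1 ref6-1 against WT turned from -0.0032 to 0.0025 with no filter, 0.00145 with at least 1 CPM in 6 libraries and 0.00306 with just those genotypes fitted. With 1 library left out, log2 differences that changed sign ranged from -0.18 to 0.22 for PIL1 in brm-1 and from -0.043 to 0.062 for PIF3 in brm-1 ref6-1 against WT. Against brm-1 the ranges were -0.091 to 0.048 for PIF4 and -0.020 to 0.11 for HY5, and against ref6-1 they were -0.000396 to 0.11 for PIF3 and -0.041 to 0.31 for PIL1. Between brm-1 and ref6-1 they were -0.037 to 0.12 for PIF1 and -0.034 to 0.098 for HY5, and in the interaction -0.090 to 0.34 for PIL1 and -0.094 to 0.12 for ATHB2. The cause was not tested.

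Fitting just the genotypes compared also called PIF4 in brm-1 ref6-1 against ref6-1 (edgeR adjusted p = 0.0432) and HFR1 in brm-1 against ref6-1 (0.0318). Deviations from the genotype means correlated at -0.19 to 0.29 for the same replicate number (18 pairs) and -0.31 to 0.26 for different numbers (36 pairs). These ranges overlap, so they neither show nor exclude that replicate numbers pair the libraries. With the replicate number as a block, 6 factors were called in brm-1, 3 in ref6-1 and 7 in brm-1 ref6-1 against WT. HY5 then passed in brm-1 (-0.21, edgeR adjusted p = 0.0303) and ref6-1 (-0.22, 0.0381), and PIF3 no longer passed in brm-1 (0.0513). For the other named genes, 230 of 1591 such comparisons lost a call and 0 changed sign. PIL1, at 18 to 72 counts per library, is the factor whose depth limits precision most.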
